A study of Mus musculus with 4 samples.

Results

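The genes described here are the nuclear-encoded subunits of oxidative phosphorylation, the respiratory chain and ATP synthase of the mitochondrial inner membrane. Members were chosen by symbol, as genes whose names begin with Ndufa, Ndufb, Ndufc, Ndufs or Ndufv and a digit, with Uqcr, with Cox4 to Cox8 or with Atp5. Symbols ending in -ps and genes with under 20 UMIs (unique molecular identifiers, 1 per captured transcript molecule) over the deposited libraries were left out. Of 81 matching symbols, 1 was left out for its -ps ending (Ndufb1-ps, with 14604 UMIs) and 2 for low counts (Cox7b2 with 1 UMI and Cox8c with 0), which left 78 members of 32285 measured genes. Cox8b, with 23 UMIs, was the member just inside the count minimum. By complex, 35 members belong to complex I, 8 to complex III, 16 to complex IV and 17 to ATP synthase (complex V). The remaining pair were Ndufa4l2, a paralogue of the complex IV subunit Ndufa4, and Cox7a2l, a factor that joins complexes III and IV into supercomplexes. The rule uses symbols and the count minimum only.

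The libraries were droplet-based single-cell RNA sequencing of cortex from male C57BL/6N mice aged 10 months. Sham-operated mice received isotype control antibody, and mice with dMCAO (occlusion of the distal middle cerebral artery, a model of cortical stroke) received isotype control or a blocking antibody (against VCAM1 in one group and against VLA4 in another), in each group for 10 weeks. VCAM1 is an adhesion molecule of activated endothelium and VLA4 is its integrin partner on leukocytes. Each group was 1 library from pooled tissue of 4 to 5 mice. The region is described as the infarct core and about 2 mm of cortex around it. That description cannot hold as it stands for the sham-operated mice, which have no infarct. The tissue was dissociated and stained for CD31 and CD45. Which of the stained cells went into the libraries is not given in the sources used here. No library was replicated, so no difference between groups has a test, and a difference between groups is a difference between 4 libraries that cannot be told apart from differences between dissections or preparations.

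Complexes I, III and IV pass electrons to oxygen and pump protons, and complex V uses the proton gradient to make ATP. Most subunits are encoded in the nucleus, translated in the cytosol and imported, while 13 core subunits are encoded by the mitochondrial genome and carry the prefix mt-. Brain endothelial cells are known for a high mitochondrial content relative to many other endothelia, and microglia for shifting between oxidative and glycolytic metabolism with their state.

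After filtering, 1514 cells of the sham library, 2832 of the stroke isotype library, 4657 of the anti-VCAM1 library and 6209 of the anti-VLA4 library remained, with 9857631, 16805668, 24387573 and 33389282 UMIs. The sham and stroke isotype libraries shared 59 cell barcodes, and in 56 of these pairs the smaller total was under 10% of the larger. Other pairs of libraries shared 1 to 8. Leaving out all 78 barcodes found in more than 1 library moved none of the endothelial-like or microglia-like totals below beyond its counting interval. Clusters were named from marker genes, so the sums of the same markers describe the classes and are no check of the names. In endothelial-like cells the 10 endothelial markers summed to between 21221 and 22703 CPM in each library, with none at 0. In microglia-like cells the 9 microglial markers summed to between 13255 and 14032 CPM, again with none at 0. Endothelial-like cells numbered 551, 667, 2409 and 3099 in the order sham, stroke isotype, anti-VCAM1 and anti-VLA4, and microglia-like cells 690, 1466, 1800 and 2434. Values are given in that order throughout, as CPM (counts per 1000000 UMIs of the class in the library).

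Nuclear-encoded respiratory genes are known for shared promoter motifs, so promoters of 3 members are shown, with and without them. Atp5k encodes a membrane subunit of ATP synthase, Cox6a1 the widely used isoform of a complex IV subunit and Cox7a1 the heart and skeletal muscle isoform of another. Each sequence is the 250 bases before the RefSeq transcription start (GRCm38.p6), 5′ to 3′ on the gene's strand. Capitals mark matches, on either strand, to the binding motifs of NRF1 (its GC-rich palindrome with a free base in the middle), of ETS factors such as GABP (CCGGAAG) and of YY1 (AAGATGGCG), factors known to bind promoters of respiratory genes. The windows lie at chr5:108434400-108434649 (minus strand, Atp5k), chr5:115348959-115349208 (minus strand, Cox6a1) and chr7:30183921-30184170 (plus strand, Cox7a1).
Atp5k: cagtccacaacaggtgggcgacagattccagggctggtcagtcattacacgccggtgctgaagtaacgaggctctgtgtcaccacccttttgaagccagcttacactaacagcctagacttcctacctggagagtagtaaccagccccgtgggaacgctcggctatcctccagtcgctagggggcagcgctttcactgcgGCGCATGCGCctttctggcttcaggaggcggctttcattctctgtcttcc
Cox6a1: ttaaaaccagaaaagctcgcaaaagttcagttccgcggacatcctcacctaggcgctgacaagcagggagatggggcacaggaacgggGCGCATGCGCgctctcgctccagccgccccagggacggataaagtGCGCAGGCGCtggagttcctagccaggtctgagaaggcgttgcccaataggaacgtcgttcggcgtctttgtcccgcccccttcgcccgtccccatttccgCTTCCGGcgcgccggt
Cox7a1: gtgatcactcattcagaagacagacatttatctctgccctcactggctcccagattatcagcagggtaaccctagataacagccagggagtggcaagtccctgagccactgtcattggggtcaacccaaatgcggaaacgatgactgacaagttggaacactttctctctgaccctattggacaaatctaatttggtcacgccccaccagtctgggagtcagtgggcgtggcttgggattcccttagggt
The Atp5k window holds an NRF1 match and the Cox6a1 window holds NRF1 matches and an ETS match, while the Cox7a1 window holds none of the motifs marked in capitals.

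Promoter windows were found by symbol for 63 of the 78 members, and motifs were counted from 250 bases before to 50 bases after the start, on both strands. The NRF1 motif was present for 15 of 63 members (23.8%), beside 5.19% of 27025 genes in the RefSeq table. The ETS motif was present for 15 members (23.8%), beside 9.93% of all genes, and the YY1 motif for 7 members (11.1%), beside 1.64%. A TATA box (TATAAA) was present for 7 members (11.1%), beside 15.7% of all genes. The core of the hypoxia response element (ACGTG) was present for 15 members (23.8%), beside 21.8%. The median GC content was 55.6% over the members' windows and 52.4% over all windows. These matches describe the letters in the windows and were not tested as sites.

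Summed over the 78 members, oxidative phosphorylation transcripts were at a higher level in endothelial-like than in microglia-like cells of every library. The summed nuclear-encoded level in endothelial-like cells was 12603 CPM in sham (95% Poisson interval 12465 to 12742), 14373 in stroke isotype (14236 to 14511), 17702 with anti-VCAM1 (interval 17625 to 17778) and 17554 with anti-VLA4 (interval 17490 to 17619). The sham library was lowest, the stroke isotype library lay between, and the antibody libraries were highest and differed from each other by less than from the stroke isotype library. In microglia-like cells the same sum was 7123, 7705, 8429 and 8404 CPM, in the same order of libraries. The ratio of endothelial-like to microglia-like cells was thus 1.77 in sham, 1.87 in stroke isotype, 2.10 with anti-VCAM1 and 2.09 with anti-VLA4. All intervals here and below are 95% intervals that cover counting error only.

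Within each library nearly every measured member was higher in endothelial-like than in microglia-like cells. The number was 72 of 76 members in sham, 74 in stroke isotype, 74 with anti-VCAM1 and 73 with anti-VLA4, beside 53.0%, 53.6%, 50% and 49.1% of all genes. Below 0 in every library were Cox6a2, the heart and muscle isoform of a complex IV subunit, and Ndufa9, an accessory subunit of complex I. Atp5g2 and Ndufs8 were also below 0 in sham, and Ndufs1 with anti-VLA4. Among 9 named classes, 7 were smaller: pericyte-like cells had the highest sum in 3 of the libraries (20435, 17077, 21901 and 20502 CPM, from only 9, 12, 49 and 90 cells), and microglia-like cells had the lowest in all 4.

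**Figure D1:**
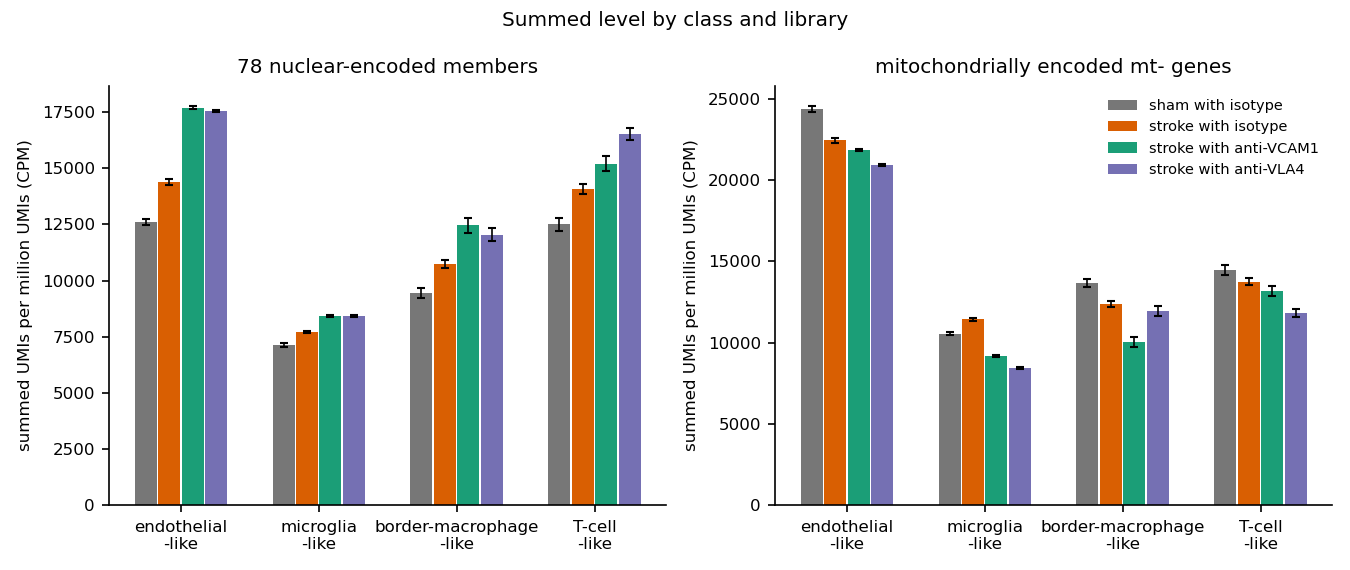
Bars show summed CPM of the 78 nuclear-encoded members and of the 13 mt- genes in 4 cell classes, by library, with 95% Poisson intervals. In endothelial-like cells the nuclear-encoded bars go from 12603 CPM in sham to 17702 with anti-VCAM1, while the mt- bars go from 24384 to 21863.

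In endothelial-like cells, the stroke isotype library was above the sham library by 0.19 on the log2 scale over the summed members (0.17 to 0.21). Of 75 members with at least 100 UMIs in the class, 66 had a log2 ratio above 0, beside 45.0% of 10679 genes tested, and the median was 0.18 beside -0.039 over all genes. The fold threshold was a level at least 25% above, or at least 20% below, that of the other library. Past it, 11 members (14.7%) were higher, close to the 13% of all genes that were, and 0 were lower, beside 16.1% of all genes. Among the 11 were Ndufa4l2, Cox4i2 and Cox7a1, with only 1, 3 and 8 UMIs in sham and 3, 6 and 18 in stroke isotype. These genes reached 100 UMIs in the class only with the antibody libraries included. The count of members higher depended on the setting. With each cell thinned to 1000 UMIs, 34 of 72 members were higher and 1 lower, beside 20% of all genes higher, and the sum was 0.29. With each cluster of the class given the same weight in every library, 4 of 75 were higher and 2 lower, beside 19.1% of all genes higher, and the sum was 0.035. The sums by complex were 0.20 for complex I, 0.14 for complex III, 0.20 for complex IV and 0.19 for complex V.

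The highest ratios among members in this comparison were those of Cox7a1, Atp5k and Ndufa4l2. Atp5k stood at 150 CPM in sham, 230 in stroke isotype, 268 with anti-VCAM1 and 249 with anti-VLA4, a log2 ratio of 0.62 (0.44 to 0.80) between the first pair. Its sham library was the lowest and the other libraries lay closer together. Cox7a1 stood at 3.17, 6.13, 6.80 and 7.56 CPM from 8, 18, 79 and 122 UMIs, and its ratio of 0.77 had an interval from -0.32 to 2.36. Ndufa4l2 had 1 UMI in sham and 3 in stroke isotype, a ratio of 0.53 that was -1.52 with each cell thinned to 1000 UMIs. The lowest ratios were those of Ndufs1, the largest iron-sulfur subunit of complex I (-0.20), Atp5b, the catalytic subunit of ATP synthase (-0.11), and Ndufa12, an accessory subunit of complex I (-0.10), each with an interval that includes 0. Uqcrfs1, the Rieske iron-sulfur protein of complex III, was also below 0, at -0.08 (-0.41 to 0.24).

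With either antibody the endothelial-like sum lay above that of the stroke isotype library, by 0.30 on the log2 scale with anti-VCAM1 (interval 0.29 to 0.32) and by 0.29 with anti-VLA4 (interval 0.27 to 0.30). The antibody libraries were set against the same stroke isotype library, so the 2 comparisons share their control and are given side by side. With anti-VCAM1, 24 of 75 members (32.0%) were past the threshold and higher, beside 12% of all genes, and 0 were lower, beside 21.4%. With anti-VLA4, 24 members (32.0%) were higher, beside 12%, and 0 were lower, beside 22.3%. Each count of 24 includes Ndufa4l2 and Cox4i2, which had 3 and 6 UMIs in stroke isotype. Both passed the minimum of 100 UMIs only through the antibody libraries, where they were higher. Ratios were above 0 for 74 and 72 members, beside 44.1% and 43.5% of all genes, with medians of 0.29 and 0.28 beside -0.049 and -0.060.

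Every complex had a summed ratio above 0 in the antibody comparisons. For anti-VCAM1 and anti-VLA4 the summed ratios were 0.27 and 0.26 for complex I, 0.32 and 0.31 for complex III, 0.33 and 0.32 for complex IV, and 0.31 and 0.29 for complex V. Past the threshold and higher were 7 and 7 of 35 complex I members, 3 and 3 of 8 complex III members, 8 and 7 of 13 complex IV members with enough UMIs, and 5 and 5 of 17 complex V members. The complex IV counts include Cox4i2, which had 6 UMIs in stroke isotype and reached 100 UMIs in the class only with the antibody libraries. Over all genes, 12% were higher past the threshold in each antibody comparison. Among all members the sham library had the lowest of the 4 levels for 66 of 75. The share of all genes with the sham library lowest was not counted.

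Uqcrfs1 was among the 3 highest members for both antibodies, at 60.3 CPM in sham, 56.8 in stroke isotype, 81.6 with anti-VCAM1 and 80.7 with anti-VLA4. Its ratios were 0.51 (0.28 to 0.77) and 0.50 (0.27 to 0.75), so both isotype libraries lay low and both antibody libraries high. Cox8a, the widely used isoform of the smallest complex IV subunit, stood at 344, 384, 511 and 514 CPM, with ratios of 0.41 and 0.42. Ndufa4 stood at 377, 414, 549 and 533 CPM, with ratios of 0.41 and 0.36. Cox5a, another subunit of complex IV, stood at 226, 260, 335 and 322 CPM, with ratios of 0.36 and 0.31. The antibody libraries were above both isotype libraries for each of these 4 genes.

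Not every member was higher. Ndufs1 stood at 43.3, 37.4, 33.1 and 35.5 CPM and was the member with the lowest ratio for both antibodies (-0.17 and -0.08, with both intervals including 0). Uqcrc2, a core protein of complex III, stood at 97.2, 117, 120 and 117 CPM, with ratios of 0.025 and -0.011. Ndufs4, an accessory subunit needed for a stable complex I, stood at 130, 129, 134 and 123 CPM, with ratios of 0.056 and -0.067. These 3 members were the lowest of each antibody comparison, and their levels hardly separated the stroke libraries. Ndufv1, the NADH-binding core subunit of complex I, stood at 50.8, 55.8, 62.4 and 64.3 CPM, and Uqcrc1, the other core protein of complex III, at 65.5, 72.5, 80.7 and 78.4 CPM, with antibody ratios between 0.11 and 0.20 and intervals that include 0. Atp5b stood at 230, 213, 252 and 253 CPM, with ratios of 0.24 and 0.25.

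The genes of the ATP synthase c ring, the rotor that protons turn, gave unequal ratios. Atp5g2 stood at 217, 255, 328 and 322 CPM, with antibody ratios of 0.37 and 0.34. Atp5g1 stood at 109, 125, 153 and 149 CPM (0.29 and 0.25). Atp5g3 stood at 105, 118, 125 and 124 CPM (0.080 and 0.072, with both intervals including 0). These genes encode the same mature protein, so the difference lies between the genes and not between protein forms. Cox4i1, which encodes the main form of a regulatory complex IV subunit, stood at 417, 498, 570 and 573 CPM, with ratios of 0.25 for stroke and 0.19 and 0.20 for the antibodies. Cox7a2l stood at 210, 233, 277 and 308 CPM, with ratios of 0.15, 0.25 and 0.40.

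**Figure D2:**
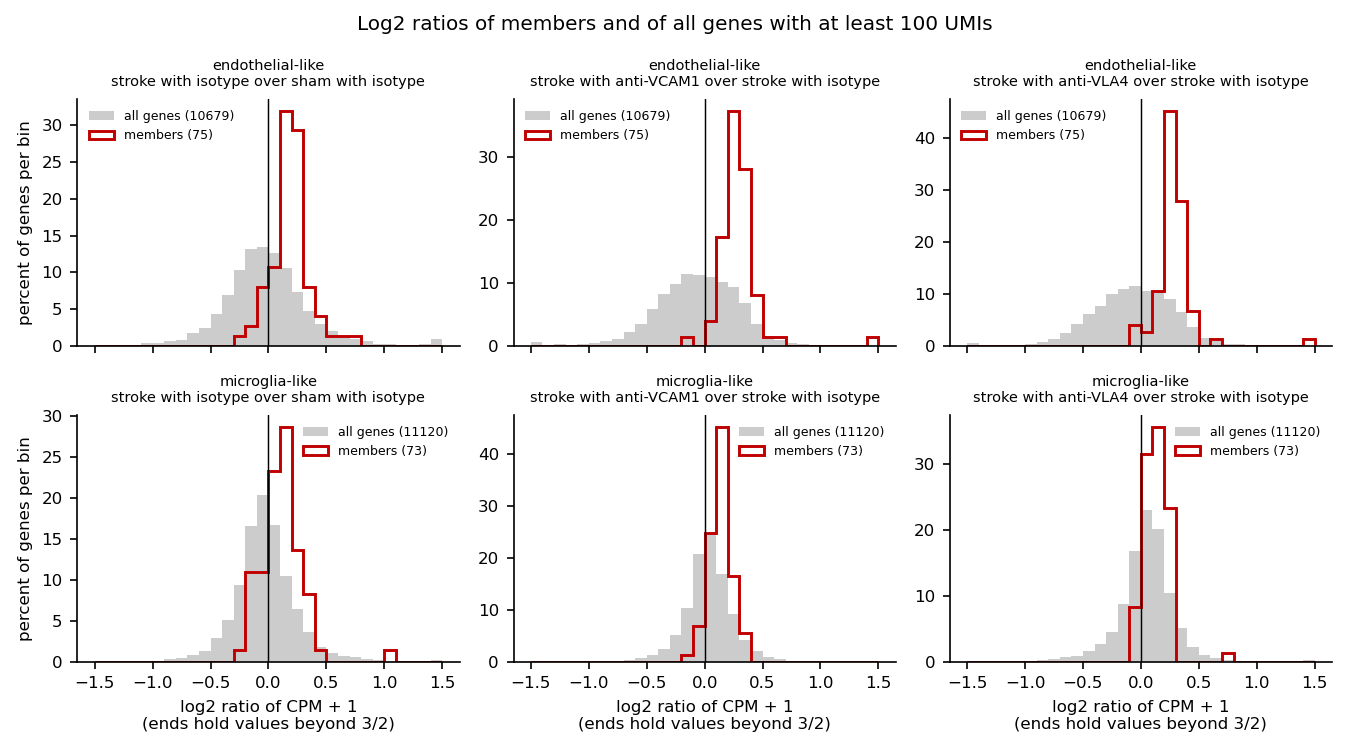
Histograms of log2 ratios of CPM per gene, members against all genes tested, for endothelial-like and microglia-like cells (rows) and the 3 comparisons (columns). In endothelial-like cells the members' median was 0.29 with anti-VCAM1 and 0.28 with anti-VLA4, while all genes had medians of -0.049 and -0.060.

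The mitochondrially encoded transcripts did not follow the nuclear ones in endothelial-like cells. The 13 mt- genes summed to 24384, 22460, 21863 and 20949 CPM, highest in sham, with log2 ratios of -0.12 for stroke, -0.039 for anti-VCAM1 and -0.10 for anti-VLA4. The number of mt- UMIs per nuclear-encoded UMI was accordingly 1.93, 1.56, 1.24 and 1.19. With anti-VCAM1, 0 of 13 mt- genes were past the threshold in either direction, and with anti-VLA4 1 was lower. That gene was mt-Nd2, a complex I core subunit, named after its value was seen, at 1801, 1704, 1416 and 1326 CPM.

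Other measures of the endothelial-like class also differed between libraries. Cytosolic ribosomal protein transcripts made up 6.88%, 8.47%, 10.4% and 10.5% of its UMIs. Their summed log2 ratios, 0.30, 0.30 and 0.31, were as large as those of the members or larger. Of marker lists of other cell types, the 8 pericyte markers summed to 125, 144, 245 and 265 CPM, the 9 microglial markers to 104, 412, 164 and 164 CPM, and the 4 erythrocyte markers to 266, 11315, 3969 and 4440 CPM, with no gene of these lists at 0. The pericyte sum was higher in the antibody libraries, while the microglial and erythrocyte sums were highest in stroke isotype. Their part in the members' difference was not tested. With mt-, ribosomal protein and haemoglobin genes and Malat1 (a nuclear-retained RNA) left out of the total, the members' sums had ratios of 0.23, 0.32 and 0.31.

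Endothelial-like cells fell into 6 clusters whose shares of the class were not the same in each library, and whose member levels were not the same either. Clusters are given by number, and the members, with the mt- and ribosomal protein genes, were held out of the clustering. Cluster 1 had 19881, 21408, 23634 and 22993 CPM of members and held 3.63%, 10.5%, 23.7% and 25.7% of the class. Cluster 4 had 10277, 11180, 13115 and 13321 CPM and held 42.3%, 31.9%, 15.2% and 14.2%. The cluster with the higher member level was thus larger in the antibody libraries, and the cluster with the lower level smaller. Cluster 1 was also low in Malat1 (0.46% to 0.85% of UMIs by library), where cluster 4 had 2.43% to 3.11%.

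Inside clusters the antibody differences were smaller but had 1 direction. All 6 clusters had a higher member sum with anti-VCAM1 than with stroke isotype, by 0.13 to 0.23, and all 6 with anti-VLA4, by 0.095 to 0.25, and each interval lay above 0. For stroke over sham, 4 of 6 clusters were higher with intervals above 0, cluster 6 was at -0.017, and cluster 15, with 21 sham cells, was at -0.66. With each cluster given the same weight in every library, the class ratios became 0.035 for stroke, 0.16 for anti-VCAM1 and 0.14 for anti-VLA4. Members past the threshold and higher were then 4, 3 and 3 of 75, beside 19.1%, 9.06% and 8.78% of all genes, and lower were 2, 0 and 0. With the trend of ratios on gene length (the span of the gene in the annotation) removed, the class ratios became 0.13, 0.16 and 0.16. Members higher were then 6, 5 and 6 of 75, beside 13.4%, 9.47% and 10.1% of all genes, and 0 were lower. Under both settings the members' counts lay under the background, so the excess of higher members in the antibody comparisons was not seen there, while the sums stayed above 0. The mt- sum was lower in all 6 clusters in each of the 3 comparisons.

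**Figure D3:**
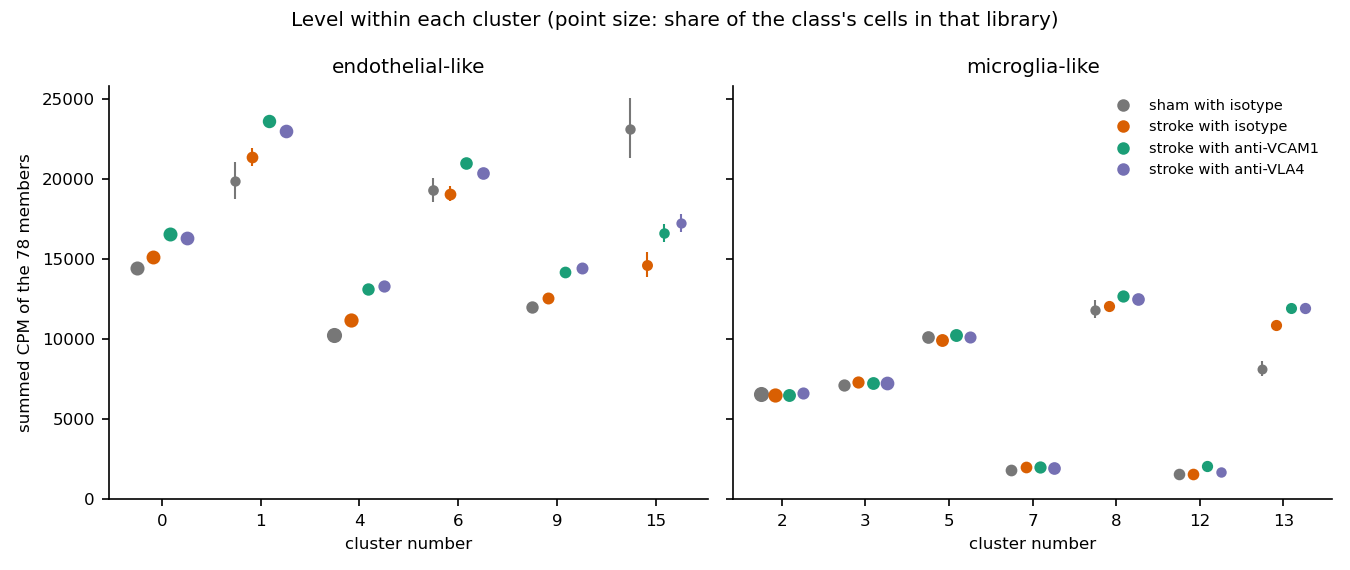
Points show the summed CPM of members within each cluster of endothelial-like and microglia-like cells, by library, with 95% Poisson intervals. Endothelial-like clusters 1 and 6 lie highest in the 3 stroke libraries (cluster 15, with 21 cells, in sham) and cluster 4 lowest in each library, and in microglia-like cells clusters 7 and 12 lie lowest, at 1541 to 2085 CPM.

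In microglia-like cells the members' differences were smaller. The summed log2 ratio was 0.11 for stroke over sham (0.095 to 0.13), 0.13 for anti-VCAM1 (0.12 to 0.14) and 0.13 for anti-VLA4 (0.11 to 0.14). Of 73 members with enough UMIs, 7, 4 and 1 were past the threshold and higher, which is 9.59%, 5.48% and 1.37%, beside 7.9%, 7.15% and 8.11% of 11120 genes, and 0 were lower, beside 9.73%, 4.61% and 6.23%. The stroke count was thus slightly above the background and the antibody counts were under it. Ratios were above 0 for 56, 67 and 67 members, beside 42.5%, 58.7% and 63.0% of all genes. By complex, the sums for stroke, anti-VCAM1 and anti-VLA4 were 0.10, 0.14 and 0.16 for complex I, 0.12, 0.12 and 0.12 for complex III, 0.13, 0.16 and 0.13 for complex IV, and 0.12, 0.11 and 0.11 for complex V.

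Among microglial members, Atp5mpl (a small ATP synthase subunit), Atp5k and Cox6a2 had the highest ratios for stroke over sham. Atp5mpl stood at 92.5, 128, 128 and 126 CPM, a ratio of 0.46 (0.31 to 0.62), with sham low and the stroke libraries level. Atp5k stood at 59.3, 78.2, 93.8 and 93.9 CPM, a ratio of 0.39 (0.20 to 0.60), and had thus the lowest level in sham in both cell classes. Lowest for stroke were Uqcrc2, at 67.2, 56.2, 63.9 and 66.4 CPM (-0.25), Atp5b, at 115, 101, 110 and 100 CPM (-0.19), and Cox5a, at 88.8, 79.7, 89.5 and 90.9 CPM (-0.16, with an interval that includes 0).

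For the antibodies, the highest microglial members apart from Cox6a2 were accessory subunits. Ndufb6 of the membrane arm of complex I stood at 23.4, 24.5, 31.5 and 29.3 CPM, a ratio of 0.35 with anti-VCAM1 (0.11 to 0.62). Cox5b, a zinc-binding subunit of complex IV, stood at 98.8, 98.9, 125 and 117 CPM, a ratio of 0.34 (0.21 to 0.46). Ndufb3 and Ndufb5, also of the membrane arm, stood at 57.0, 56.2, 67.8 and 69.3 CPM and at 72.6, 66.7, 79.2 and 82.0 CPM, with ratios of 0.30 and 0.29 for anti-VLA4. In each of these genes the antibody libraries lay above both isotype libraries. Cox7a2l had the lowest ratio for both antibodies, at 209, 223, 202 and 213 CPM (-0.14 and -0.068). The remaining lowest members, Ndufv1 and Ndufs6 for anti-VCAM1 and Atp5a1 and Atp5mpl for anti-VLA4, had ratios between -0.037 and -0.022.

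The mt- genes went the other way in microglia-like cells of the antibody libraries. Their sum was 10552 CPM in sham, 11426 in stroke isotype, 9178 with anti-VCAM1 and 8452 with anti-VLA4. The log2 ratios were 0.11 for stroke, -0.32 for anti-VCAM1 and -0.44 for anti-VLA4. Past the threshold and lower were 5 of 13 mt- genes with anti-VCAM1 and 13 of 13 with anti-VLA4, beside 4.61% and 6.23% of all genes. The mt- UMIs per nuclear-encoded UMI were 1.48, 1.48, 1.09 and 1.01. Ribosomal protein transcripts, at 7.79%, 9.39%, 8.93% and 9.16% of UMIs, did not follow that order.

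Across the 7 microglia-like clusters the members' ratios ranged from -0.032 to 0.42 for stroke, from -0.016 to 0.41 for anti-VCAM1 and from -0.051 to 0.13 for anti-VLA4. The highest were in cluster 13 for stroke and in cluster 12 for anti-VCAM1, where the sums went from 8136 to 10899 CPM and from 1569 to 2085 CPM. Cluster 2, the one with the most cells, had 6562, 6502, 6528 and 6603 CPM of members, and cluster 3 had 7104, 7325, 7243 and 7285. Cluster 8 had 11847, 12047, 12669 and 12491 CPM and held 3.62%, 7.50%, 14.2% and 17.3% of the class, while cluster 2 held 41.9%, 32.0%, 19.2% and 13.3%. Clusters 7 and 12 had 1541 to 2085 CPM in every library and over 5% of their UMIs in Malat1. Ratios were above 0 in 5 of 7 clusters for each comparison, with intervals above 0 in 1, 4 and 3. With equal cluster weights the class ratios became 0.049, 0.046 and 0.036, and with the gene length trend removed 0.14, 0.060 and 0.068. The mt- sum was lower in 6 of 7 clusters with anti-VCAM1 and in all 7 with anti-VLA4, by 0.33 to 0.61.

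**Figure D4:**
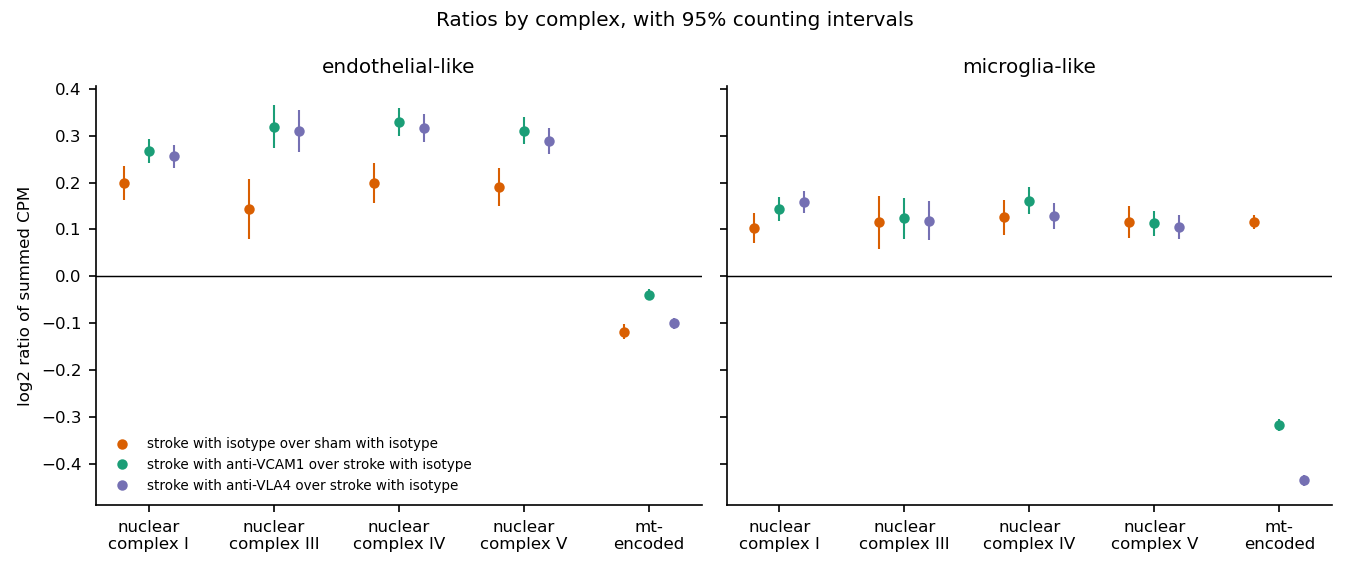
Points show summed log2 ratios with 95% intervals for complexes I, III, IV and V (nuclear-encoded members) and for the mt- genes, in endothelial-like and microglia-like cells. Nuclear-encoded sums lie above 0 in every panel, and the mt- sum of microglia-like cells lies at -0.32 with anti-VCAM1 and -0.44 with anti-VLA4.

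Of the smaller classes, border-macrophage-like and T-cell-like cells had 50 or more cells in every library. In border-macrophage-like cells (116, 199, 64 and 93) the members summed to 9439, 10745, 12463 and 12032 CPM, with ratios of 0.19, 0.21 and 0.16. Past the threshold and higher were 15, 20 and 15 of 70 members, beside 14.2%, 17.6% and 16.2% of all genes, and lower were 1, 2 and 1, beside 15.5%, 19.6% and 22.6%. Ratios were above 0 for 57, 58 and 46 members, beside 49.5%, 51.4% and 45.3%. The higher counts were above the background by a modest margin. The stroke ratio of this class was -0.13 when up to 20% mitochondrial UMIs were allowed or marked doublets were kept. In both cases the new clustering left 1 of its clusters unnamed, so that 38 sham and 65 stroke isotype cells remained, and the anti-VLA4 ratio was then 0.54 or 0.55. Naming cells one by one from their markers gave a stroke ratio of -0.055. In T-cell-like cells (73, 247, 111 and 201) the members summed to 12499, 14070, 15206 and 16540 CPM, with ratios of 0.17, 0.11 and 0.23. Past the threshold and higher were 14, 14 and 20 of 71 members, beside 16.7%, 15.1% and 12.7%, and lower were 3, 0 and 0, beside 27.9%, 21.3% and 25.2%. Ratios were above 0 for 57, 55 and 65 members, beside 43.0%, 45.5% and 43.6%. Without the barcodes found in more than 1 library, the stroke ratio was 0.055 in T-cell-like and 0.14 in border-macrophage-like cells.

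Most members were present in every class, but a few tissue isoforms were not. Ndufa4l2 (ENSMUSG00000040280), a gene known to be raised by hypoxia signalling and described in pericytes, stood at 1730, 1336, 1004 and 916 CPM in pericyte-like cells (48, 75, 323 and 562 UMIs) and was seen in 155 of 160 of these cells. Over all libraries it stood at 989 CPM there, and the next class, astrocyte-like cells, was at 11.4 CPM from 5 UMIs in 2 cells. Of its UMIs in kept cells, 66.5% were in pericyte-like cells and 22.6% in an unnamed cluster of 305 cells that carried pericyte and endothelial markers together. Cox4i2 (ENSMUSG00000009876), the alternative form of Cox4i1 known from lung and from oxygen-sensing cells, stood at 469, 748, 581 and 513 CPM in pericyte-like cells and was seen in 145 of 160. Over all libraries it stood at 546 CPM there, and the next class, astrocyte-like cells, was at 6.87 CPM from 3 UMIs. Their partners Ndufa4 and Cox4i1 stood at 255 and 621 CPM in pericyte-like cells and at 517 and 553 CPM in endothelial-like cells over all libraries. Ndufa4 was thus lower, and Ndufa4l2 higher, in pericyte-like than in endothelial-like cells.

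In endothelial-like cells Ndufa4l2 and Cox4i2 had few UMIs. Ndufa4l2 stood at 0.397, 1.02, 4.91 and 4.40 CPM (1, 3, 57 and 71 UMIs). Its log2 ratios were 1.55 for anti-VCAM1 (interval 0.65 to 4.59) and 1.42 in the anti-VLA4 comparison (interval 0.50 to 4.42). These ratios were among the highest of all members, but rest on 3 UMIs in stroke isotype. Of the endothelial-like cells with an Ndufa4l2 UMI, 82.0% also had a UMI of a pericyte marker, beside 24.4% of all endothelial-like cells. In endothelial-like cells with no pericyte marker UMI its level was 0, 0.470, 0.654 and 1.26 CPM, from 0, 1, 5 and 14 UMIs. Cox4i2 stood at 1.19, 2.04, 3.62 and 3.91 CPM (3, 6, 42 and 63 UMIs), with ratios of 0.60 and 0.69 whose intervals include 0. In cells with no pericyte marker UMI it stood at 1.02, 2.35, 2.09 and 2.07 CPM. Ndufa4l2, Cox4i2 and also Cox7a1 reached the minimum of 100 UMIs in the class only with the antibody libraries included. Ndufa4l2 and Cox4i2 are counted above among the members past the threshold and higher in all 3 comparisons, and Cox7a1 for stroke.

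Cox6a2 (ENSMUSG00000030785) was, with Ndufa9, one of the tested members lower in endothelial-like than in microglia-like cells of every library. It stood at 5.08, 11.98, 15.3 and 20.1 CPM in microglia-like cells (26, 111, 153 and 268 UMIs), with log2 ratios of 1.10 for stroke (0.61 to 1.92), 0.32 for anti-VCAM1 (-0.013 to 0.71) and 0.70 for anti-VLA4 (0.42 to 1.08). The sham library was lowest and the anti-VLA4 library highest. The gene was seen in 266 of 6390 microglia-like cells (4.16%), with up to 19 UMIs in 1 cell, beside 0.134% of endothelial-like cells. Median UMIs per cell were 3779 to 4374 by library in endothelial-like and 5224 to 7343 in microglia-like cells. With each cell thinned to 1000 UMIs the shares by library were 0.291%, 0.490%, 0.507% and 1.50% in microglia-like cells, and 0.0461% over all endothelial-like cells.

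Cluster 13 of the microglia-like cells held 346 of the 558 microglial Cox6a2 UMIs. In its 17, 109, 125 and 190 cells Cox6a2 stood at 6.77, 74.9, 85.0 and 136 CPM (1, 69, 86 and 190 UMIs), and 28.8% of the cells had a UMI. The 6 other microglial clusters had 0.493 to 16.9 CPM over all libraries. The genes that led cluster 13 over other microglia-like cells, named after their values were seen, were Spp1, Lgals3, Fabp5, Lpl, Cxcl13 and Apoe, of which several are known markers of activated microglia. The cluster made up 2.46%, 7.44%, 6.94% and 7.81% of the class. Without the 10 richest cells of each library the class level was 1.79, 6.12, 9.08 and 14.3 CPM. Over all libraries Cox6a2 stood at 14.8 CPM in microglia-like, 33.0 CPM in dendritic-like and 12.3 CPM in B-cell-like cells. In dendritic-like cells all 59 UMIs of Cox6a2 came from 6 cells, and in T-cell-like cells 20 of 30 UMIs came from 1 cell. The usual form of the same subunit, Cox6a1, stood at 87.3, 96.1, 111 and 107 CPM in microglia-like and at 210, 213, 268 and 275 CPM in endothelial-like cells.

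Cox7a1 (ENSMUSG00000074218) had 78.8% of its UMIs in endothelial-like cells, spread over 202 cells with at most 3 UMIs each. Its level over all libraries was 6.84 CPM in endothelial-like, 8.83 CPM in pericyte-like (9 UMIs) and 0.530 CPM in microglia-like cells, and the endothelial and pericyte values do not differ beyond their intervals (5.98 to 7.79 and 4.04 to 16.8). The usual form Cox7a2 stood at 247, 325, 386 and 384 CPM in endothelial-like cells, with ratios of 0.39 for stroke, 0.25 for anti-VCAM1 and 0.24 for anti-VLA4. Cox8b (ENSMUSG00000025488), the muscle form of Cox8a, had 23 UMIs, all in 2 astrocyte-like cells and 22 of them in 1 cell of the stroke isotype library.

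**Figure D5:**
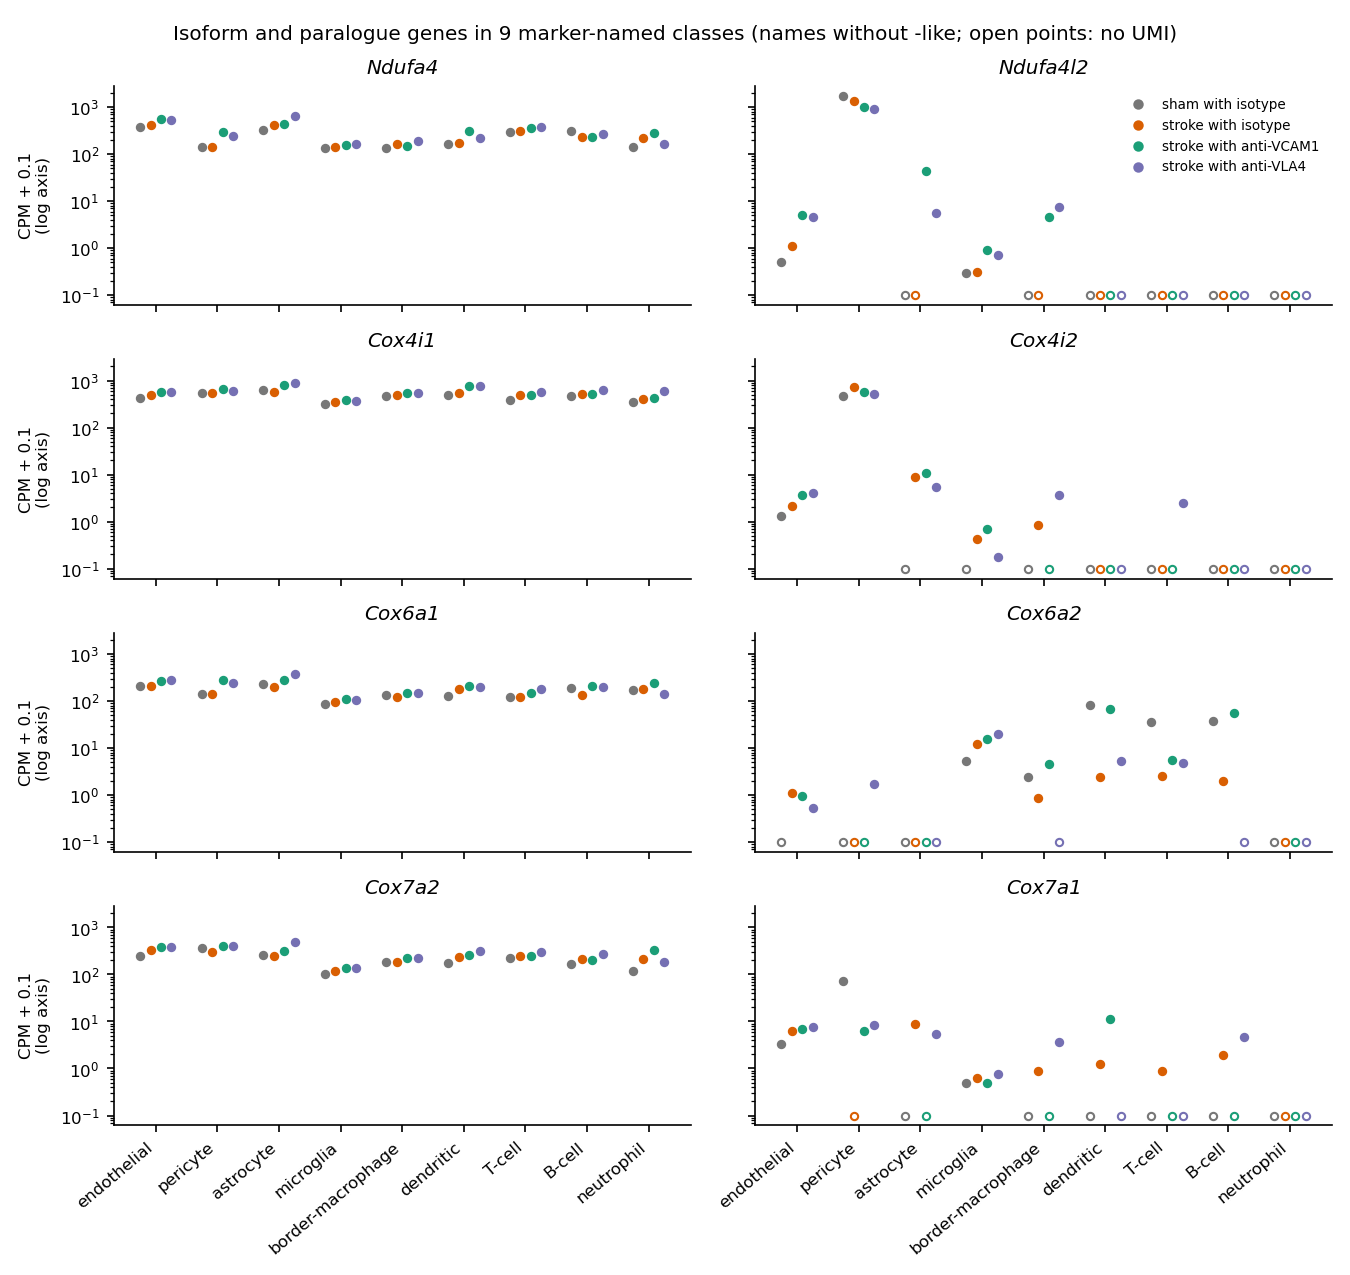
Points show CPM + 0.1 on a log axis for paired isoforms in 9 cell classes, by library, with open points where no UMI was counted. Ndufa4l2 and Cox4i2 stand out in pericyte-like cells (989 and 546 CPM over all libraries). Microglia-like cells hold 81.5% of the Cox6a2 UMIs in kept cells. Its level over all libraries is 14.8 CPM there and 33.0 CPM in dendritic-like cells, where 6 cells carry it. Cox7a1 is at a similar level in endothelial-like and pericyte-like cells (6.84 and 8.83 CPM).

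Other genes of energy metabolism are given as lists beside the members. Their counts past the threshold read against 13%, 12% and 12% of all genes higher, and 16.1%, 21.4% and 22.3% lower, in the 3 endothelial comparisons. In endothelial-like cells the 5 genes of complex II and cytochrome c had summed ratios of -0.049 for stroke, 0.23 for anti-VCAM1 and 0.24 for anti-VLA4. Past the threshold, 0, 2 and 2 of the 5 were higher and 1, 0 and 0 lower. Sdhd, a membrane anchor of complex II, stood at 45.6, 31.0, 44.5 and 44.9 CPM, with ratios of -0.54, 0.51 and 0.52: the stroke isotype library was the low one and the others were level. The 32 measured assembly factors, which help build the complexes, had ratios of 0.10, 0.22 and 0.23, with 6, 7 and 10 higher and 1, 4 and 3 lower. Ndufaf2, an assembly factor of complex I, stood at 40.9, 63.6, 54.0 and 56.2 CPM. The 16 genes of the tricarboxylic acid cycle had ratios of -0.041, 0.090 and 0.10, with 0, 3 and 1 higher and 2, 0 and 0 lower. Mdh2, the mitochondrial malate dehydrogenase, stood at 101, 99.4, 131 and 127 CPM.

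Glycolysis and the regulators of mitochondrial biogenesis differed from each other in endothelial-like cells. The 15 measured glycolysis genes had summed ratios of 0.047, 0.21 and 0.25, with 5, 2 and 5 higher and 1 lower in each comparison. Eno1, the enolase of glycolysis, stood at 92.1, 140, 169 and 168 CPM, and Ldha, a subunit of lactate dehydrogenase, at 298, 357, 445 and 483 CPM, both lowest in sham. The 11 measured regulators had ratios of -0.029, -0.096 and -0.12, with 1, 0 and 0 higher and 2 lower in each comparison. Nrf1, the factor whose motif is marked in the promoters above, stood at 113, 72.2, 61.2 and 60.0 CPM, highest in sham, with ratios of -0.64, -0.24 and -0.26. With the gene length trend removed its antibody ratios were 0.020 and 0.011. Esrra, a nuclear receptor that drives respiratory genes, stood at 13.9, 16.7, 11.3 and 10.5 CPM.

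In microglia-like cells the same lists had summed ratios, for stroke, anti-VCAM1 and anti-VLA4, of -0.092, 0.12 and 0.13 for complex II with cytochrome c, and of 0.0061, 0.15 and 0.15 for assembly factors. They were -0.0081, 0.047 and 0.051 for the tricarboxylic acid cycle, 0.20, 0.11 and 0.073 for glycolysis, and 0.061, -0.055 and -0.13 for biogenesis regulators. Eno1 stood at 49.2, 78.0, 89.0 and 87.8 CPM, again lowest in sham. Slc2a1, a glucose transporter, stood at 50.2, 71.7, 64.2 and 63.4 CPM, lowest in sham and highest in stroke isotype. Timmdc1, an assembly factor of complex I, stood at 21.1, 24.3, 30.1 and 36.8 CPM, with ratios of 0.20, 0.30 and 0.58. Sdhd stood at 30.7, 23.1, 29.9 and 30.3 CPM, low in stroke isotype as in endothelial-like cells, but with cells thinned to 1000 UMIs its ratios were 0.21 for stroke and -0.30 for anti-VCAM1.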

How the data were processed

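Members and gene lists were chosen with earlier results of these data known. The authors deposited unnormalized UMI counts for each gene in each cell barcode. Cell Ranger 7.0.1 wrote them, per the file headers, while the submitters' processing notes name Cell Ranger 6.0.0 and Seurat 4.3.0.1. The builds these notes name, with no role, are mm10 and GRCh38. Libraries used Chromium 3' chemistry, version 3.1, per the labels.

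Barcodes with under 500 UMIs, under 200 genes or over 10% of UMIs from mt- genes were dropped, and 11, 24, 63 and 124 cells marked by Scrublet were removed. The rest were clustered together with scanpy 1.11.5 (2000 variable genes, 30 components, 15 neighbours, Leiden resolution 1), with 271 genes held out, members included. Clusters were named from marker lists. The rule that left 2 clusters of mixed markers unnamed (340 cells) was settled after the clusters were seen.

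UMIs of a class were added up within each library and given as CPM with exact Poisson intervals. Log2 ratios used a pseudocount of 1 CPM for single genes and none for sums. The conditional binomial intervals at 95% used no pseudocount. For genes at low CPM the printed ratio is therefore smaller in size than the ratio its interval belongs to. Counting intervals treat UMIs as independent molecules. Ratios need at least 100 UMIs in the class. On simulated counts, 94.0% to 96.0% of 200 changed genes were recovered past the threshold of 25% higher or 20% lower. Whether this share holds for the members, with 1 library per group, was not tested. In endothelial-like and microglia-like cells most members differed by less than the threshold in each main comparison. The share for differences of that size was not tested. Alternatives covered cell filters, doublets, class naming, resolution, depth, scaling, class makeup, low-Malat1 cells and gene length. Named genes were the isoform pairs, core subunits, the 3 highest and 3 lowest members per comparison and up to 2 genes per list. Others were chosen after their values were seen. Numerical work used Python 3.11.15, numpy 2.4.6 and scipy 1.17.1.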

Additional observations from a re-analysis of the deposited data

How the results depend on the processing

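No paired analysis was possible because each group is 1 library. Under 13 other settings the summed member ratios of endothelial-like and microglia-like cells stayed above 0 in all 3 comparisons, between 0.035 and 0.35. Where a value moved the cause was not tested. Values are given for stroke, anti-VCAM1 and anti-VLA4. With equal cluster weights the endothelial sums were 0.035, 0.16 and 0.14 with 6 (4 higher, 2 lower), 3 and 3 members past the threshold, beside 19.1%, 9.06% and 8.78% of all genes higher. The microglial sums were 0.049, 0.046 and 0.036 with 0 members for anti-VCAM1, beside 7.54%. With the gene length trend removed the endothelial sums were 0.13, 0.16 and 0.16 with 6, 5 and 6 members higher, beside 13.4%, 9.47% and 10.1%, and the microglial 0.14, 0.060 and 0.068 with 0 for anti-VCAM1, beside 5.08%. With the median of all genes at 0 the endothelial sums were 0.23, 0.35 and 0.35 with 45 of 75 members higher for each antibody, beside 16.1% and 16.8%, and the microglial 0.15, 0.094 and 0.067 with 0 for anti-VCAM1, beside 5.50%. Without mt-, ribosomal protein and haemoglobin genes and Malat1 in the total, the endothelial sums were 0.23, 0.32 and 0.31 with 18 members higher for stroke, beside 15.9%, and the microglial stroke sum was 0.15, with 2 members for anti-VCAM1, beside 6.92%. With cells thinned to 1000 UMIs (6509 of 6726 endothelial-like and 6292 of 6390 microglia-like cells were deep enough), the endothelial sums were 0.29 for stroke with 35 of 72 members (34 higher, 1 lower), beside 20% of all genes higher, and 0.31 for anti-VLA4. The microglial counts were 15 (14 higher), 14 (12 higher) and 18 (all higher) of 72, beside 14.97%, 13% and 13.7%, with a sum of 0.17 for anti-VLA4. Naming each cell singly, the endothelial stroke sum was 0.22, and the microglial antibody sums were 0.10 (2 members, beside 6.95%) and 0.087. Clustering at resolution 0.5 gave an endothelial anti-VCAM1 sum of 0.32, and keeping doublets an anti-VLA4 sum of 0.31. Without the 10% of cells lowest in Malat1, the endothelial antibody sums were 0.27 and 0.26 (15 members higher for anti-VLA4, beside 10.4%) and the microglial anti-VLA4 sum was 0.11. A minimum of 20 UMIs gave 2 microglial members for anti-VLA4, beside 10.6%.

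Of 4680 values of named genes under alternatives, 4434 stayed within the counting interval of the main value, and 273 differed from it in sign. Of 1128 values whose main ratio was past the threshold, 146 were under it. Ratios past the threshold that changed sign numbered 10. With thinned cells these were, in endothelial-like cells, Ecsit (-0.22), Ndufa4l2 (-1.52), Pfkp (0.57) and Pgk1 (-0.18) for stroke, and Coa6 (-0.031) and Gpi1 (-0.0040) for anti-VLA4. In microglia-like cells they were Polrmt (-0.49) and Sdhd (0.21) for stroke and Sdhd (-0.30) for anti-VCAM1. With equal cluster weights Dlat was at 0.055 for stroke in endothelial-like cells. In border-macrophage-like cells the stroke sum was -0.13 with up to 20% mitochondrial UMIs, -0.13 with doublets kept and -0.055 with cells named singly. The mt- sum of that class for anti-VLA4 was 0.22 with up to 20% mitochondrial UMIs and 0.024 with thinned cells. In T-cell-like cells the mt- sum was 0.072 for stroke with the reduced total and 0.014 for anti-VCAM1 with thinned cells. Some ratios also moved with cells thinned to equal depth, as given above. With 1 library per group, the counting intervals do not cover the spread between animals, which is unknown.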
